A study of Drosophila melanogaster with 30 samples.

Results

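The Toll-responsive immune effector genes of Drosophila melanogaster were followed in flies that carried an added Y chromosome and in flies without it. The set was chosen by gene symbol, with earlier results of these data known. It holds 10 genes: the Bomanins BomS1, BomS2, BomS3 and BomBc1, the Daisho genes Dso1 and Dso2, the Baramicin genes BaraA1 and BaraA2, and the antifungal peptide genes Drs and Mtk. Of these, 8 were matched by their FlyBase ID to a row among the 16868 genes of the count files. Drs and BaraA2 were not matched to a row and were not analysed here. Whether they have a row under another ID was not settled.

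Poly(A) RNA had been sequenced in 30 libraries that form 15 groups of 2. Females carrying a Y named Yohio (XXYohio) or Ycongo (XXYcongo) were set against females without a Y (XX), as whole bodies, as ovaries and as central nervous system (CNS) of larvae of instar 3. Males carrying a further Yohio (XYYohio) or Ycongo (XYYcongo) were set against males with 1 Y (XY), as whole bodies and as testes. Adults were 2 days old. The labels write the X chromosomes of every group, controls included, with a mark often used for attached chromosomes, which they do not explain, and they name no infection in any group. The replicates are called biological, but no label ties them to separate animals or rearings, and p-values therefore reflect only how much these libraries vary.

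The Toll pathway is one of the main inducible defence pathways of the fly. Recognition proteins that bind fungal or bacterial cell walls start a cascade of serine proteases in the hemolymph, which cuts the ligand Spätzle. Spätzle binds the receptor Toll, the inhibitor Cactus is degraded, and the transcription factors Dif and Dorsal enter the nucleus, above all in the fat body, the organ that secretes most immune peptides into the hemolymph. Bomanins are short secreted peptides that flies need to survive fungal and Gram-positive infection. Daisho peptides act against filamentous fungi, the Baramicin A precursor is cut into several antifungal peptides, and metchnikowin, the product of Mtk, is a proline-rich antifungal peptide that responds to both the Toll and the Imd pathway.

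All 8 genes with a row lie on chromosome arm 2R in the Ensembl BDGP6.54 annotation, release 115; the build the authors used is not given in the sources used here. The 4 Bomanin genes lie together within 6031 bases, from 18382704 to 18388734, with BomBc1 on the minus strand and BomS1, BomS2 and BomS3 on the plus strand. Dso1 (minus strand) and Dso2 (plus strand) are neighbours separated by 1070 bases, from 20869322 to 20870391. BaraA1 lies at 13411739 to 13413085 on the plus strand and overlaps CG30059 on the minus strand. BaraA2, not matched to a row, lies at 13407011 to 13408358 on the same strand as BaraA1. It has 1160 bases of exon, against 1159 for BaraA1. Whether reads of BaraA2 were counted in the row of BaraA1 was not examined, so BaraA1 values may not be those of 1 gene. Mtk lies at 15408846 to 15409113 inside the gene Stacl on the same strand. Whether reads were counted by strand is not stated, so reads of BaraA1 and CG30059 cannot be told apart where the genes overlap. Strand would not separate Mtk from Stacl, and whether Mtk overlaps exons of Stacl was not examined. In CNS libraries Stacl had 300 to 1022 counts, while Mtk had 0 or 1. None of the 8 genes shared its counts in every library with another gene.

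Library totals lay between 6026258 and 15363636 counts, so that the limit taken for a count of 0, 3 counts, lay between 0.195 and 0.498 CPM (counts scaled to a common library size) of the plain total; this limit covers counting error only. The share of counts from mitochondrially encoded genes ranged widely among bodies, from 5.21% in XXYohio replicate 2 to 40.1% in XYYcongo replicate 2. The tissue labels went with their markers: 10 neuronal genes summed to 2621 to 3697 CPM in CNS libraries, 12 eggshell genes to 5993 to 14722 CPM in ovaries and 15 testis genes to 14290 to 23043 CPM in testes. Levels below are CPM after TMM scaling of the library totals within a tissue and sex, unless plain totals are named. Tests were made with edgeR's quasi-likelihood method over all genes kept by a filter on low counts, with Benjamini-Hochberg adjustment, and a gene was called at an adjusted p below 0.05.

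The effector transcripts were most abundant in male bodies. By mean plain CPM, the 3 male body groups held the first 3 of 15 places for each of the 8 genes, with XYYcongo in place 3 each time. XXYohio and XX bodies held places 4 and 5, and XXYcongo bodies place 6 or, for Dso1, Dso2, BaraA1 and Mtk, place 7, after XXYohio ovaries for BaraA1 and after XY testes for the others. Summed over the 8 genes, libraries held 754 to 819 CPM in XYYohio bodies, 357 to 365 CPM in XYYcongo bodies and 540 to 835 CPM in XY bodies. The female bodies held 38.1 to 130 CPM in XXYohio, 25.3 to 31.1 CPM in XXYcongo and 107 to 123 CPM in XX. Testis libraries held 7.28 to 32.3 CPM, ovary libraries 5.74 to 9.8 CPM and CNS libraries 0.222 to 0.69 CPM. These sums were scaled within a tissue and sex and are not on 1 scale across them. By plain totals the sums were 942 and 784 CPM in XYYohio bodies, 352 and 236 CPM in XYYcongo and 1033 and 571 CPM in XY. In female bodies they were 108 and 45.1 CPM in XXYohio, 24.5 and 26.6 CPM in XXYcongo and 105 and 154 CPM in XX. By plain CPM, XYYohio and XY bodies overlapped for all 8 genes, so their places relative to each other were not separated by the libraries' spread.

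**Figure D1:**
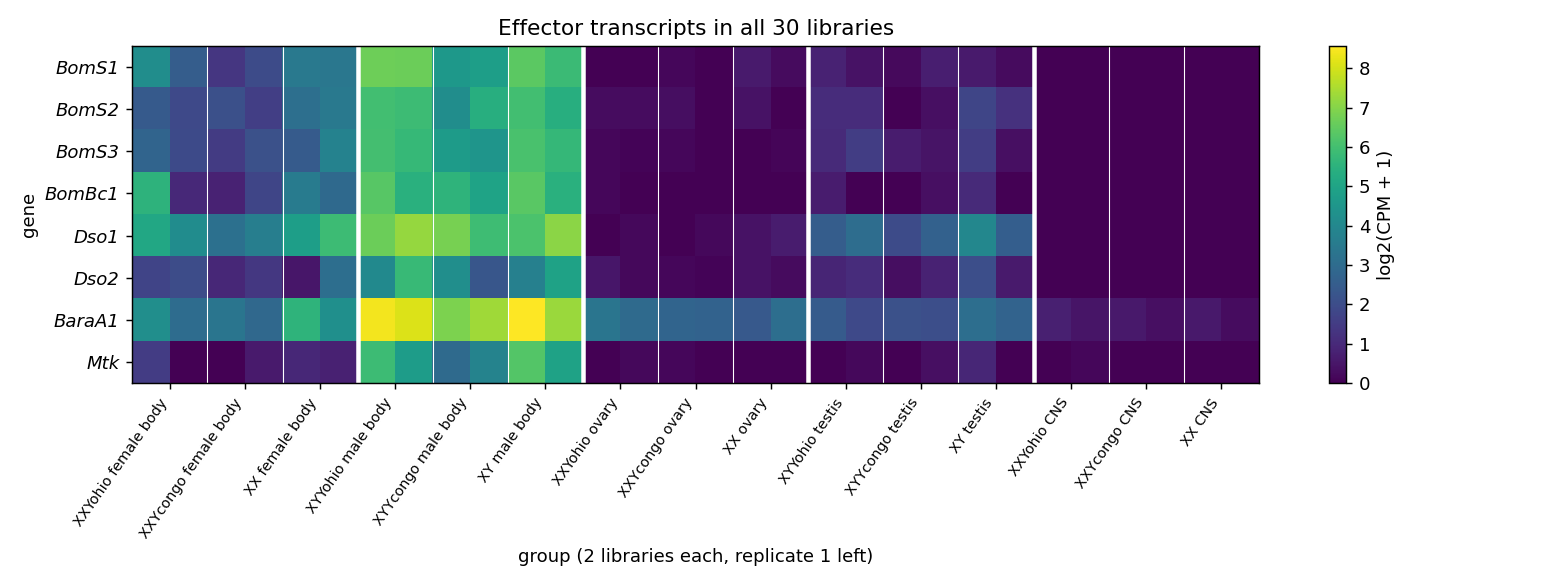
Level of each effector gene (rows) in each of the 30 libraries (columns, 2 per group), as log2(CPM + 1) with TMM scaling within a tissue and sex. The male bodies are brightest, the female bodies lie between, and in ovary, testis and CNS mainly BaraA1 and, in testis, Dso1 can be seen.

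In the CNS the genes were at or near 0. The 6 larval CNS libraries held 2 to 6 counts of these genes each; they were BaraA1 counts apart from 1 Mtk count in XXYohio replicate 2, and BomS1, BomS2, BomS3, BomBc1, Dso1 and Dso2 had 0 counts in all 6. In ovaries the genes other than BaraA1 did not exceed 0.561 CPM in any library. BaraA1 was counted there at 8.95 and 6.86 CPM in XXYohio, 5.79 and 5.55 CPM in XXYcongo and 4.23 and 7.47 CPM in XX, beside 14.2 to 22.7 CPM for the overlapping CG30059. Only BaraA1 passed the filter in ovaries and it was not called with Yohio (log2 fold change 0.43, SE 0.46; edgeR adjusted p = 0.81; 0.0113% of genes called) or with Ycongo (log2 fold change -0.05, SE 0.46; edgeR adjusted p = 0.974; 0.283% called).

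Per kilobase of exon, Dso1 had the highest mean level of the 8 in each testis group, with a TMM-scaled CPM per kilobase of 7.92 in XYYohio, 5.33 in XYYcongo and 12.8 in XY. By CPM it stood at 4.76 and 7.39 CPM in XYYohio, 2.91 and 5.26 CPM in XYYcongo and 14.7 and 4.86 CPM in XY testes, and all 3 groups overlapped. BomS2 was counted at 1.12 and 1.14 CPM in XYYohio testes, at 0 and 0.284 CPM in XYYcongo testes and at 2.47 and 1.35 CPM in XY testes. That is 0 and 4 counts in XYYcongo against 19 and 15 in XY, which leaves the fitted fold change of BomS2 (-3.58, SE 1.00; unadjusted p = 0.00872, edgeR adjusted p = 1.0) resting on few reads. Without XYYcongo replicate 1 it was -2.69, and without XYYcongo replicate 2 that group holds 0 counts. With either added Y, 0 of 5 tested effector genes were called in testes by edgeR, as were 0 of 12743 genes (0%). At an unadjusted p under 0.05, 2 of the 5 were lower with Ycongo, BomS2 and BaraA1 (1.18% of all genes lower), and 0 of the 5 with Yohio (1.35%).

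**Figure D2:**
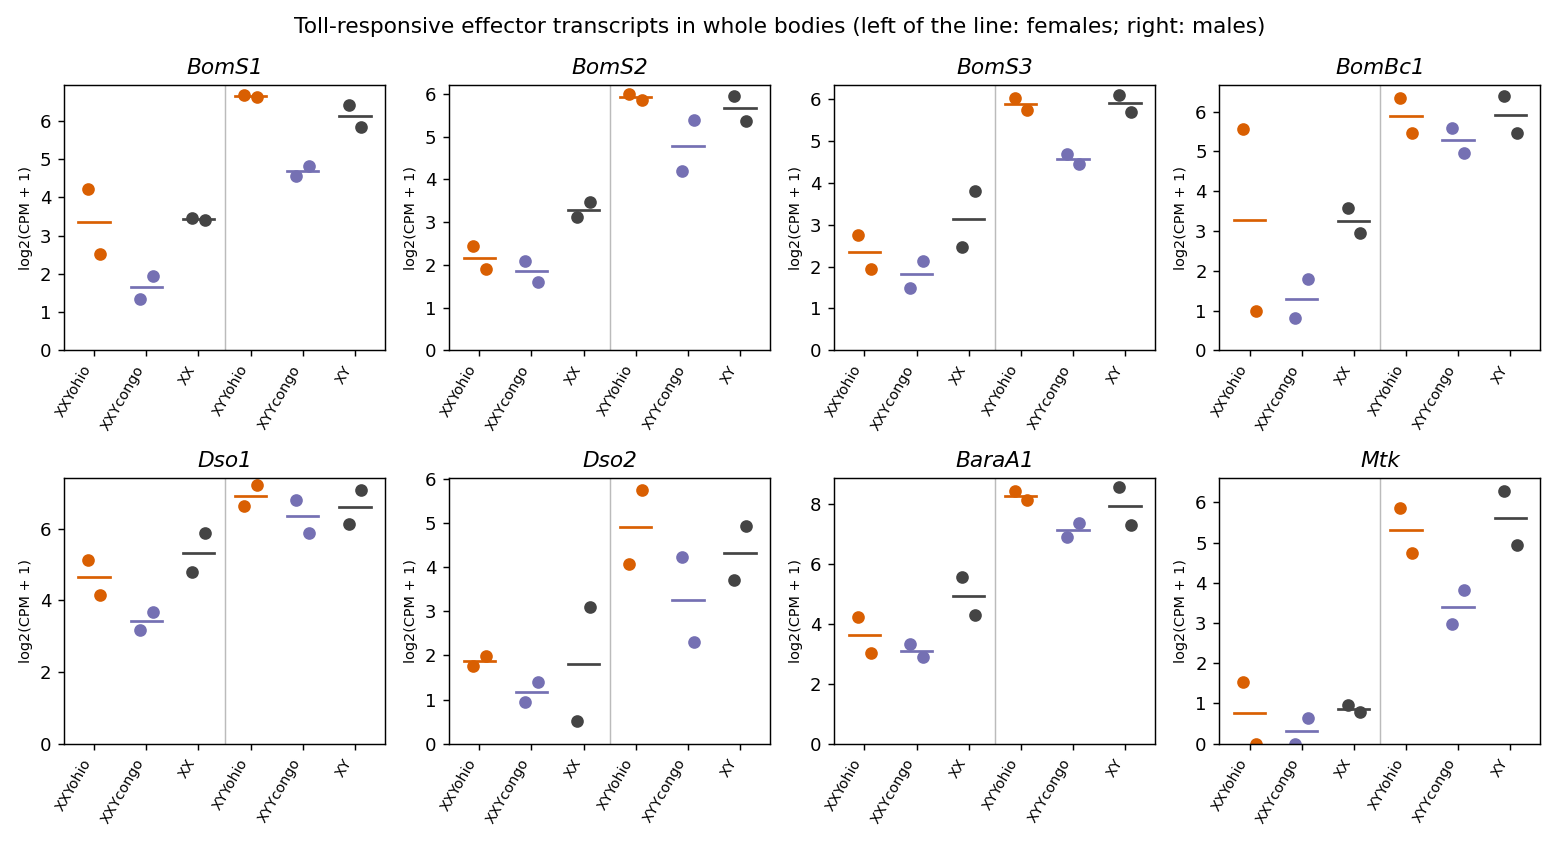
Level of the 8 effector genes in the 12 whole-body libraries, as log2(CPM + 1), 1 panel per gene; points are libraries (replicate 1 left) and bars the means of 2 libraries, with females left and males right of the grey line. XXYcongo libraries lie under both XX libraries for 6 of the genes tested in females, and XYYcongo libraries under both XY libraries for BomS1, BomS3 and Mtk.

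The question for the female body was whether an added Y went with another level of these transcripts. With Ycongo each of the 7 tested genes had a fitted value below that of XX females (51.8% of all genes below 0), with a median log2 fold change of -2.06, against -0.02 for all 10459 genes tested. No single gene passed the test: edgeR called 0 of 7 effector genes and 0 of 10459 genes (0%), and DESeq2 called 0 of the 7 and 6 genes in all. At an unadjusted p under 0.05, 5 of the 7 were lower (3.19% of all genes lower), and for 6 of the 7 both XXYcongo libraries lay under both XX libraries (19.7% of all genes). The 4 Bomanins share a locus, as do Dso1 and Dso2, so the 7 genes are not independent observations. Because the set was chosen with earlier results of these data known, the shares of all genes here and below are a description.

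Among the Bomanins, BomS1 stood at 1.53 and 2.86 CPM in XXYcongo bodies, against 9.99 and 9.59 CPM in XX bodies. The XX libraries agreed closely, and both XXYcongo libraries lay under them (log2 fold change -2.18, SE 0.70; unadjusted p = 0.0128, edgeR adjusted p = 0.906). BomS2 stood at 3.28 and 2.04 CPM in XXYcongo, against 7.66 and 10.1 CPM in XX (log2 fold change -1.72, SE 0.55; unadjusted p = 0.0133). BomS3 stood at 1.83 and 3.41 CPM in XXYcongo, against 4.52 and 13.0 CPM in XX, where the second library was far above the first (log2 fold change -1.75, SE 0.70, and -0.78 without XX replicate 2). BomBc1, the Bomanin with a pair of Bomanin segments, stood at 0.763 and 2.45 CPM in XXYcongo, against 10.9 and 6.66 CPM in XX (log2 fold change -2.51, SE 1.34; unadjusted p = 0.0957). All 4 Bomanins thus had XXYcongo libraries under both XX libraries.

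Dso1 and BaraA1 also had both XXYcongo libraries under both XX libraries, while Dso2 did not. Dso1 stood at 7.94 and 11.7 CPM in XXYcongo, against 26.7 and 57.5 CPM in XX (log2 fold change -2.10, SE 0.55, and -1.42 without XX replicate 2; unadjusted p = 0.00424, edgeR adjusted p = 0.906). BaraA1 stood at 9.0 and 6.4 CPM in XXYcongo, against 46.2 and 18.4 CPM in XX (log2 fold change -2.06, SE 0.62, and -1.23 without XX replicate 1; unadjusted p = 0.00914, edgeR adjusted p = 0.906). CG30059, which overlaps BaraA1, stood at 7.94 and 8.45 CPM in XXYcongo, against 17.8 and 9.14 CPM in XX. Dso2 had 0.916 and 1.64 CPM in XXYcongo, against 0.437 and 7.54 CPM in XX, so its groups overlapped, and without XX replicate 2 its log2 fold change was 1.51 in place of -1.66. Mtk was hardly counted in any female body, with 0 and 4 counts in XXYcongo, 15 and 0 in XXYohio and 13 and 8 in XX, and was removed by the filter. Without the filter on low counts, edgeR called BomBc1, Dso1 and BaraA1 lower with Ycongo (adjusted p = 0.0126, 0.0139 and 0.0316), 3 of 8 effector genes among 48 of 14483 genes.

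With Yohio the female values were mixed. The median log2 fold change was -0.73, with 5 of 7 genes below 0 (50.5% of all genes below 0), and edgeR called 0 of 7 effector genes and 0 of 10459 genes (0%), while DESeq2 called 0 of the 7 and 14 genes in all. At an unadjusted p under 0.05, 2 of the 7 were lower (5.64% of all genes lower). They were BomS2, at 4.4 and 2.73 CPM in XXYohio against 7.66 and 10.1 CPM in XX (log2 fold change -1.32, SE 0.55; unadjusted p = 0.0407, edgeR adjusted p = 0.523), and BaraA1, at 17.7 and 7.10 CPM against 46.2 and 18.4 CPM (log2 fold change -1.38, SE 0.60; unadjusted p = 0.0488, edgeR adjusted p = 0.528). For these genes both XXYohio libraries lay under both XX libraries, as for 20.9% of all genes.

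The widest gap between the 2 libraries of a body group was that of BomBc1 in XXYohio, with 46.0 CPM in replicate 1 and 0.983 CPM in replicate 2, and 6 of the 7 genes were higher in replicate 1. Without replicate 1, the log2 fold change of BomBc1 turned to -3.15 in place of 1.41, and that of BomS1 to -1.06 in place of 0.18. Over the 7 genes the median difference between the 2 XXYohio libraries was 0.97 on the log2 scale, against 0.51 over all genes tested in that body. In XX bodies it was 1.08 for the effectors, against 0.5 for all genes, and in XXYcongo bodies 0.51, against 0.43.

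Set against each other, the added Y chromosomes gave lower fitted values with Ycongo for all 7 genes, with a median log2 difference of -1.09, and edgeR called 0 of 7 effector genes and 0% of all genes. At an unadjusted p under 0.05, 3 of the 7 were lower in XXYcongo than in XXYohio, BomS1 (-2.35, SE 0.70), BomBc1 (-3.92, SE 1.39) and Dso1 (-1.37, SE 0.54), against 0.765% of all genes. The BomBc1 value rests on XXYohio replicate 1, and without that library it was 0.65; that of BaraA1 also turned, from -0.68 with all libraries to 0.13 without it. Both added Y chromosomes pooled gave a median of -1.38 against XX, with 4 of 7 genes lower at an unadjusted p under 0.05 (6.74% of all genes lower) and 0 called by edgeR (0% of all genes); the smallest edgeR p was that of BaraA1 (log2 fold change -1.72, SE 0.49; unadjusted p = 0.00732, adjusted p = 0.523), whose log2 fold change was -0.89 without XX replicate 1.

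**Figure D3:**
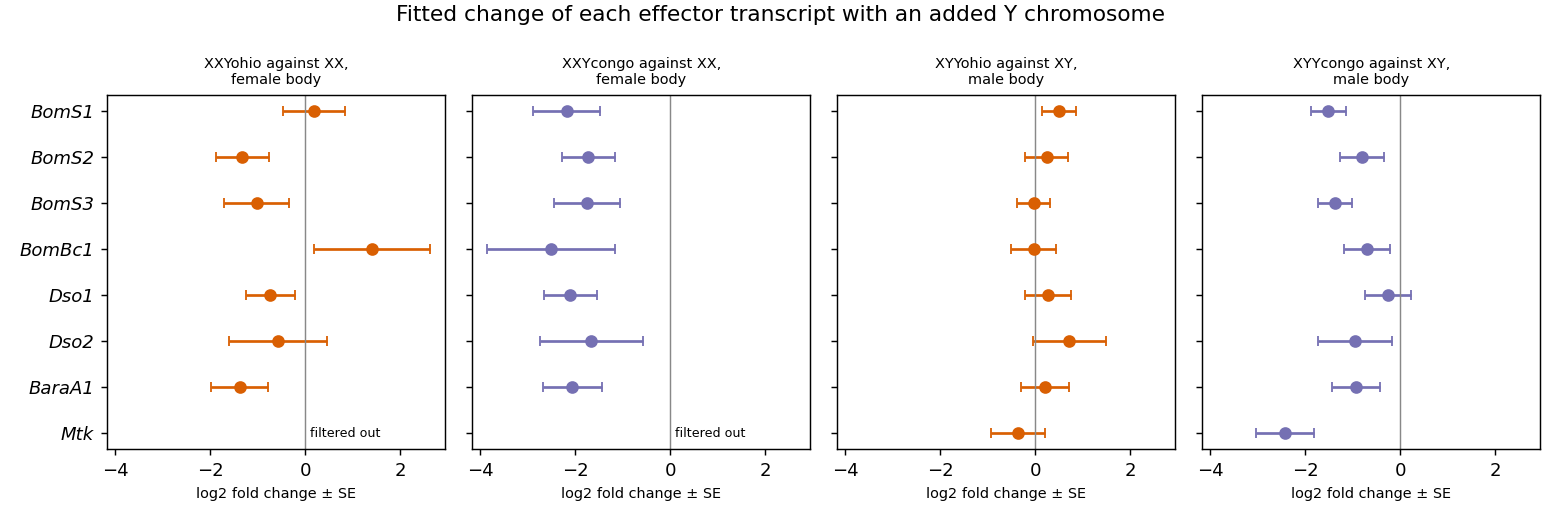
Fitted log2 fold change with its standard error for each effector gene in whole bodies, with an added Yohio or Ycongo over the control of the same sex. All Ycongo points lie below 0 in both sexes, the Yohio points of males lie around 0, and no gene was called in any of the 4 panels.

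In male bodies Yohio left the fitted values near 0. The median log2 fold change of the 8 genes was 0.22, with 3 below and 5 above 0, and edgeR called 0 of 8 effector genes and 0 of 12889 genes (0%), with 0 of the 8 at an unadjusted p under 0.05 in the lower direction (0.147% of all genes lower). BomS1 stood at 101 and 98.3 CPM in XYYohio, against 84.9 and 56.5 CPM in XY, the only gene whose groups did not overlap (9.48% of all genes not overlapping and higher). Its log2 fold change was 0.50 (SE 0.36; edgeR adjusted p = 1.0). For 7 of the 8 genes leaving out 1 library, of XY or of XYYohio, turned the sign, while BomS1 stayed between 0.24 and 0.82 whichever library was left out. DESeq2 called none of the 8.

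With Ycongo all 8 genes had fitted values below those of XY males (46.9% of all genes below 0), with a median log2 fold change of -0.94, against 0.04 for all genes. Again edgeR called 0 of 8 effector genes and 0 of 12889 genes (0%), and DESeq2 called 0 of the 8 and 12 genes in all. At an unadjusted p under 0.05, 3 of the 8 were lower (3.74% of all genes lower): BomS1, BomS3 and Mtk. For the same 3 genes both XYYcongo libraries lay under both XY libraries (19.4% of all genes).

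BomS1 stood at 22.5 and 27.1 CPM in XYYcongo bodies, against 84.9 and 56.5 CPM in XY bodies (log2 fold change -1.51, SE 0.37; unadjusted p = 0.00287, edgeR adjusted p = 0.656). BomS3 stood at 24.8 and 21.0 CPM in XYYcongo, against 68.1 and 51.0 CPM in XY (log2 fold change -1.38, SE 0.36; unadjusted p = 0.00423, edgeR adjusted p = 0.656). Mtk stood at 6.83 and 13.1 CPM in XYYcongo, against 77.1 and 29.7 CPM in XY (log2 fold change -2.42, SE 0.61, and -1.58 without XY replicate 1; unadjusted p = 0.00334, edgeR adjusted p = 0.656). Mtk had the largest fitted change of the 8, and its control libraries also lay furthest apart. Stacl, the gene around Mtk, stood at 170 and 259 CPM in XYYcongo, against 149 and 196 CPM in XY, and so was not lower.

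The other 5 genes overlapped between the groups. BomS2 stood at 17.3 and 40.8 CPM in XYYcongo, against 61.3 and 40.3 CPM in XY (log2 fold change -0.81, SE 0.46), and BomBc1 at 47.0 and 30.4 CPM, against 83.0 and 42.9 CPM (log2 fold change -0.70, SE 0.48). BaraA1 stood at 118 and 162 CPM in XYYcongo, against 379 and 155 CPM in XY (log2 fold change -0.93, SE 0.50, and -0.15 without XY replicate 1). Each of these 3 genes had an XYYcongo library within the range of XY. Dso1 stood at 111 and 58.5 CPM in XYYcongo, against 69.1 and 134 CPM in XY, and its log2 fold change of -0.26 (SE 0.48) became 0.30 without XY replicate 2 and 0.12 without XYYcongo replicate 2. Dso2 stood at 17.7 and 3.92 CPM in XYYcongo, against 12.2 and 29.6 CPM in XY (log2 fold change -0.96, SE 0.78), with a range from -2.41 to -0.17 when 1 library was left out.

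Ycongo and Yohio males were also set against each other. All 8 genes were below 0, with a median of -1.25 and 5 of the 8 without overlap (19.6% of all genes lower without overlap), and edgeR called 0 of 8 effector genes (0% of all genes). BomS1 stood at 22.5 and 27.1 CPM in XYYcongo, against 101 and 98.3 CPM in XYYohio (log2 fold change -2.01, SE 0.38; unadjusted p = 0.00049, edgeR adjusted p = 0.693). DESeq2 called BomS1 in this comparison, with an adjusted p of 0.0162 among 16 genes called. BomS3 (-1.35, SE 0.36) and Mtk (-2.06, SE 0.60) were also lower at an unadjusted p under 0.05, together with BomS1 3 of 8 genes (3.25% of all genes lower). With both added Y chromosomes pooled, 2 of 8 genes, BomS3 and Mtk, were lower than in XY at an unadjusted p under 0.05 (0.939% of all genes lower), and edgeR called none (0% of all genes). The comparisons within a sex share libraries, so their values are not independent of each other.

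The authors' deposited tables give the same signs for Ycongo, but they come from the same libraries and are no independent support. Their fold changes were computed by another method, so their sizes are not set against those fitted here. In the authors' deposited table for XXYcongo against XX, the log2 fold changes of the 8 genes lay between -1.37 (BomS1 and Dso1) and -0.33 (Mtk), and the smallest adjusted p was 0.267 (Dso1). In the authors' deposited table for XYYcongo against XY, they lay between -1.51 (Mtk, adjusted p = 0.0982) and -0.17 (Dso1). None of the 8 genes had an adjusted p below 0.05 in these tables.

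Whether the added Y went with a different change in females than in males was tested in 1 fit of the 12 body libraries. The differences of differences, tested with edgeR, called 0 of 8 effector genes for Yohio and 0 of 8 for Ycongo, and 0% of 13318 genes for either Y; at an unadjusted p under 0.05 there were 668 genes for Yohio and 638 for Ycongo. For Yohio, 1 effector gene was lower at an unadjusted p under 0.05, BomS2 (female minus male -1.53, SE 0.68; edgeR adjusted p = 0.903; 3.48% of all genes lower). For Ycongo it was Dso1 (-1.75, SE 0.74; edgeR adjusted p = 0.912; 2.66% of all genes lower). The changes in females and in males were thus not shown to differ for any of the 8 genes.

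Between the control sexes the effector genes were lower in XX females, though not each by more than the spread between libraries. Dso1, for one, stood at 26.7 and 57.5 CPM in XX, against 69.1 and 134 CPM in XY. Here and below, CPM values and list sums were scaled within each sex. Fold changes and shares between the sexes came from the libraries of both sexes scaled together. In the fit of the 12 bodies, 5 of 8 effector genes were called lower in XX females than in XY males by edgeR, against 22.7% of all 13318 genes called lower, and for all 8 both XX libraries lay under both XY libraries (37.5% of all genes). The median log2 fold change was -2.61, against -0.11 for all genes. Mtk differed most, with 0.948 and 0.71 CPM in XX females, against 77.1 and 29.7 CPM in XY males (log2 fold change -5.78, SE 1.12, and -4.92 without XY replicate 1; edgeR adjusted p = 0.00117). BaraA1 had 46.2 and 18.4 CPM in XX, against 379 and 155 CPM in XY (log2 fold change -2.84, SE 0.61; edgeR adjusted p = 0.00257), with -3.69 without XX replicate 1 and -2.06 without XY replicate 1.

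BomS1 (-2.65, SE 0.55; edgeR adjusted p = 0.00192), BomS3 (-2.59, SE 0.53; edgeR adjusted p = 0.00188) and BomS2 (-2.32, SE 0.49; edgeR adjusted p = 0.00232) had similar log2 fold changes between the sexes, and that of BomS3 was -3.56 without XX replicate 2. BomBc1 (-2.63, SE 1.07; edgeR adjusted p = 0.0762), Dso2 (-2.23, SE 1.01; edgeR adjusted p = 0.106) and Dso1 (-1.09, SE 0.52; edgeR adjusted p = 0.128) did not pass the test. Dso2 ranged from -5.37 without XX replicate 2 to -1.31 without XX replicate 1. BomBc1 and Dso2 were called by DESeq2 (adjusted p = 0.0141 and 0.0378). Female bodies contain ovaries, in which the effector genes other than BaraA1 were near 0, and the female germline list (10 genes) summed to 4022 to 9284 CPM in XX females, against 277 to 379 CPM in XY males. The fat body list (20 genes), several of which are yolk protein genes of females, summed to 25059 to 25334 CPM in XX, against 15299 to 24266 CPM in XY. In ovary libraries the list summed to 4325 to 7775 CPM, so its sum in female bodies is not a measure of fat body alone. Gene by gene, 15 of the 20 were below 0 in XX against XY (53.1% of all genes below 0). Their median log2 fold change was -0.6, against -0.11 for all genes. In such bulk samples fewer cells of a type and less RNA per cell cannot be told apart.

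Levels per kilobase of annotated exon were set side by side between genes, as a description. Annotated lengths ran from 223 bases (Dso2) to 1159 bases (BaraA1). Whether reads rise in proportion to length in such short transcripts was not examined. BaraA1 values may also hold reads of CG30059 or BaraA2. In XY male bodies the mean TMM-scaled CPM per kilobase was 231 for BaraA1, 199 for Mtk, 196 for BomS1, 138 for BomS2, 135 for BomBc1, 133 for Dso1, 93.7 for Dso2 and 77.5 for BomS3. In XX female bodies the order differed, with Dso1 first at 54.9, BaraA1 at 27.9 and BomS1 at 27.1, and Mtk last at 3.09. Mtk thus stood among the first 3 of the 8 in XY males and last in XX females.

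The rest of the Toll cascade was described by its roles, upstream to downstream. No gene of these lists was called with an added Y in either body by edgeR. The 6 recognition genes had a median log2 fold change of -0.69 with Ycongo in females, all 6 below 0 (51.8% of all genes), and of -0.02 in males. With Yohio their medians were -0.27 in females (4 of 6 below 0, against 50.5% of all genes) and 0.1 in males. The proteases and their inhibitors, 9 tested in females and 12 in males, had medians of -0.70 (8 of 9 below 0) in XXYcongo and -0.44 (9 of 12 below 0, against 46.9% of all genes) in XYYcongo. With Yohio these genes had medians of -0.32 in females (7 of 9 below 0) and 0.16 in males. Among them SPE, the protease that cuts Spätzle, stood at 9.54 and 6.68 CPM in XXYcongo, against 16.6 and 25.9 CPM in XX (log2 fold change -1.38, SE 0.54; edgeR adjusted p = 0.906), and at 44.4 and 37.7 CPM in XYYcongo, against 70.8 and 69.2 CPM in XY (-0.77, SE 0.34; edgeR adjusted p = 0.656). In XXYcongo the log2 fold changes of the 9 tested genes ran from -1.51 (spirit) to 0.08 (MP1). Both Ycongo groups of SPE lay under their controls, as did 19.7% of all genes in females and 19.4% in males.

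The 14 tested receptor and signalling genes did not share that direction. Their median was 0.01 with Ycongo in females (7 above and 7 below 0) and 0.42 in males (10 above 0), and the transcript of the receptor gene Tl stood at 1082 and 1294 CPM in XXYcongo, against 842 and 667 CPM in XX (log2 fold change 0.66, SE 0.47; edgeR adjusted p = 0.906). In male bodies Tl stood at 241 and 162 CPM in XYYcongo, against 111 and 184 CPM in XY, and the groups overlapped. Between the control sexes, Tl (2.55, SE 0.49; edgeR adjusted p = 0.00112), Uev1A (1.43; adjusted p = 0.00753) and Traf6 (1.31; adjusted p = 0.0146) were higher in XX females than in XY males, while Dif, the factor that drives the adult response, was lower (-1.01; adjusted p = 0.0238). Toll also patterns the embryo, and its maternal RNA is made in the ovary.

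The other Toll effectors, 20 genes of the Bomanin, Baramicin and Drosomycin-like families and related peptides, were mostly below 0 with Ycongo as well. With Ycongo in females 12 were tested, of which 10 were below 0 (median -1.21; 51.8% of all genes below 0), and in males 17, of which 14 were below 0 (median -1.10; 46.9% of all genes) and 7 were lower at an unadjusted p under 0.05 (3.74% of all genes lower). With Yohio the medians of the same genes were -0.59 in females and 0.16 in males. BomBc2, a further Bomanin gene, stood at 61.8 and 54.8 CPM in XYYcongo, against 174 and 126 CPM in XY (log2 fold change -1.36, SE 0.37; edgeR adjusted p = 0.656), and at 10.1 and 18 CPM in XXYcongo, against 16.6 and 50.8 CPM in XX. BomT3 varied by library, at 51.5 and 317 CPM in XXYcongo, against 104 and 16.8 CPM in XX. Def, a defensin against Gram-positive bacteria, stood at 430 and 50.6 CPM in XYYcongo, against 237 and 97.5 CPM in XY, so that 1 library of a group was several times the other in both genes.

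The effectors of the Imd pathway, which answers mainly to Gram-negative bacteria, had lower fitted values in XXYcongo females. With Ycongo in females 13 of 14 tested were below 0, with a median of -3.23 (51.8% of all genes below 0), and 8 were lower at an unadjusted p under 0.05 (3.19% of all genes lower). With Yohio in females 12 of 14 were below 0, with a median of -0.83 (50.5% of all genes below 0). With Ycongo in males 10 of 17 were below 0, with a median of -0.49 (46.9% of all genes). The female control libraries disagreed in these genes: AttC, an attacin gene, stood at 8.17 and 7.49 CPM in XXYcongo, against 202 and 8.79 CPM in XX (log2 fold change -3.75, SE 1.45; edgeR adjusted p = 0.906). AttA stood at 1.60 and 1.09 CPM in XXYcongo, against 48.8 and 3.28 CPM in XX. XX replicate 1 was high in both attacin genes, while of the 7 Toll effectors 3 (BomS1, BomBc1 and BaraA1) were higher in XX replicate 1 and the others in XX replicate 2. The difference of differences was not called for any Imd effector, and 5 of the 17 were lower at an unadjusted p under 0.05 for Ycongo (2.66% of all genes lower).

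**Figure D4:**
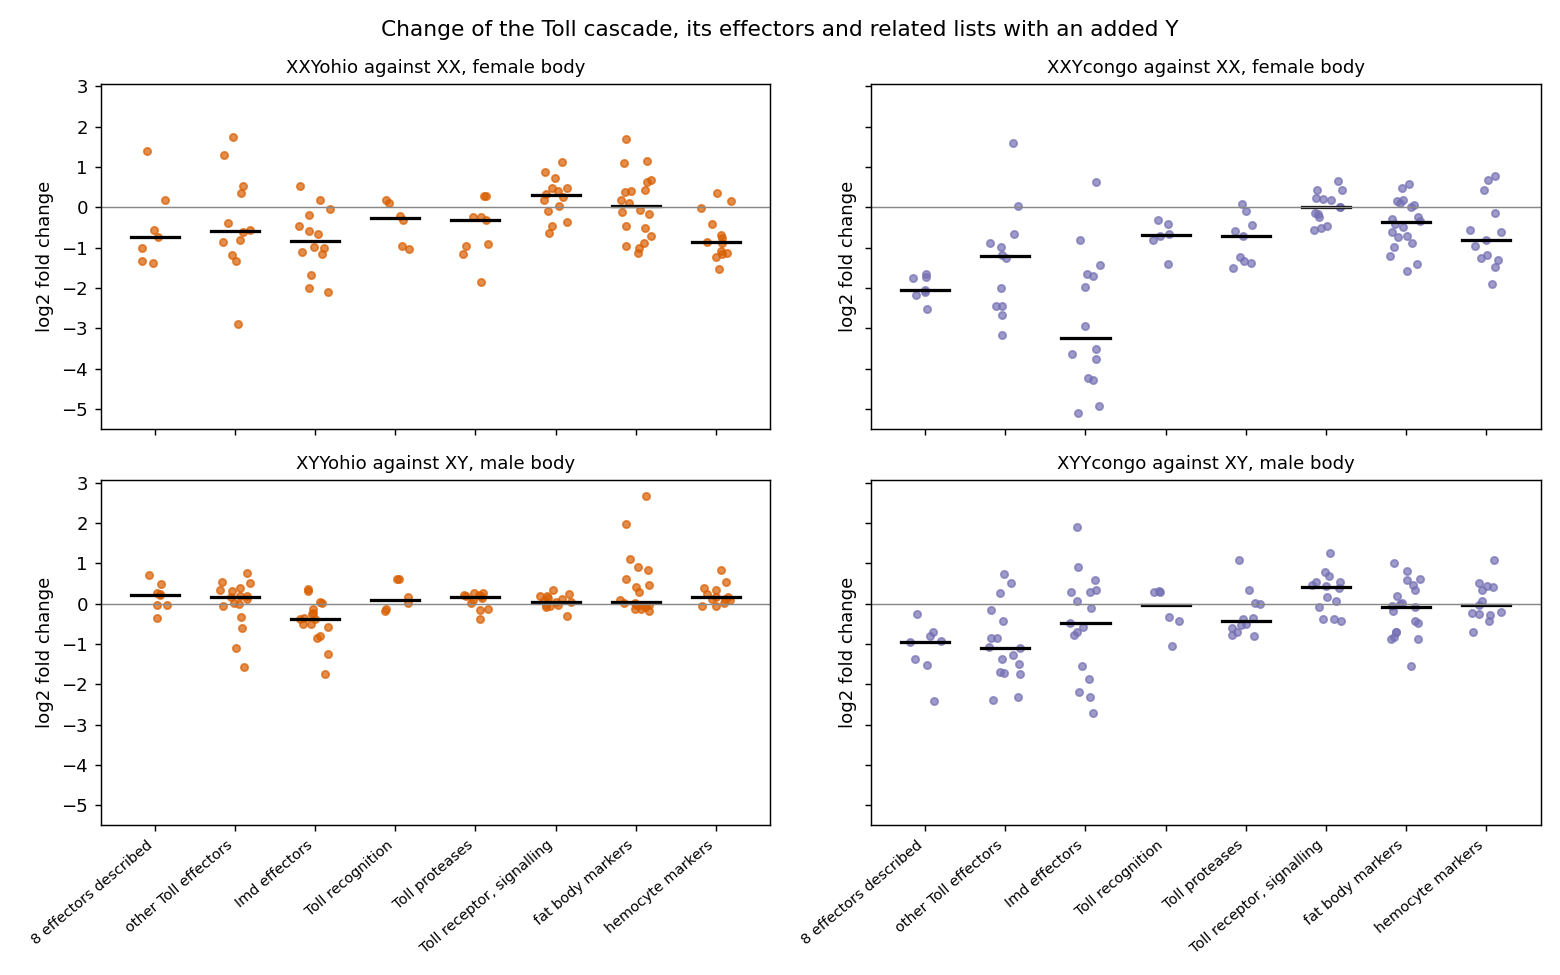
Fitted log2 fold changes of single genes (points) and their median (black bar) for the 8 effectors described, other Toll effectors, Imd effectors, upstream Toll genes by role, and fat body and hemocyte markers, with each added Y over its control. With Ycongo the medians of the effectors lie below 0 in both sexes, while Toll receptor and signalling genes have medians of 0.01 in females and 0.42 in males; no gene shown was called.

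Sums of cell type markers were set beside these values. Muscle and gut lists summed to less in bodies with either added Y than in XX bodies, as did the hemocyte list with Yohio; the hemocyte list with Ycongo, and the fat body list with either Y, overlapped XX. The fat body list (20 genes, 1 of them also a recognition gene, and counted in ovaries too) summed to 18681 and 25284 CPM in XXYcongo, against 25059 and 25334 CPM in XX. Of its genes 13 of 20 were below 0 (median -0.37). The hemocyte list (13 genes) summed to 637 and 944 CPM in XXYcongo, against 925 and 1452 CPM in XX (median -0.82), and none of its genes was at 0 in any female body. Muscle genes (9) summed to 6755 to 7033 CPM in XXYcongo, against 10205 to 12692 CPM in XX, and the 12 digestive genes of the gut to 1433 to 1502 CPM, against 1974 to 3721 CPM. The female germline list summed to 11575 to 12732 CPM in XXYcongo, against 4022 to 9284 CPM in XX. The eggshell list (12 genes) summed to 2891 and 3038 CPM in XXYcongo and 2265 and 5615 CPM in XXYohio, against 1838 and 1852 CPM in XX. Of its genes 2 were below 0 with Ycongo and 1 with Yohio (51.8% and 50.5% of all genes). All 9 muscle and all 11 tested gut genes were below 0 with either Y. In XXYohio bodies, where the effector values were mixed, the fat body list summed to 23800 and 30420 CPM (median 0.02), the hemocyte list to 790 and 678 CPM (median -0.87), the muscle list to 3930 and 5117 CPM (median -1.57), the gut list to 1256 and 1957 CPM (median -0.73) and the female germline list to 13480 and 6820 CPM. With Ycongo, the median of -2.06 for the effectors lay below that of the fat body, hemocyte, muscle (-0.80) and gut (-1.07) lists, but the part of these markers in the result was not tested.

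In males the fat body list summed to 19072 to 23068 CPM in XYYcongo, against 15299 to 24266 CPM in XY (median -0.07), and the hemocyte list to 1348 to 2260 CPM, against 1289 to 1803 CPM (median -0.03); both lists overlapped between the groups, and none of their genes was at 0. XYYcongo replicate 2 stood apart in the testis list (15 genes), with 8246 CPM against 2896 CPM in XYYcongo replicate 1 and 2993 to 4325 CPM in XY, and in the stress list with the Turandot genes (12), with 800 CPM against 92.4 CPM in replicate 1 and 117 to 498 CPM in XY; their part in the result was not tested. Without XYYcongo replicate 2, the log2 fold changes of BomS1, BomS3 and Mtk against XY were -1.65, -1.26 and -2.96. Mitochondrial counts made up 10.1% and 40.1% of the XYYcongo libraries, against 14.0% and 13.9% of the XY libraries, and 25.4% and 33.5% of the XXYcongo libraries, against 25.2% and 9.26% of the XX libraries. Without mitochondrially encoded genes, the fold changes of each effector gene between any pair of body groups of a sex, and between the control sexes, kept their sign and their side of the threshold.

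The 7 effector genes kept in both sexes were compared in how they moved from library to library. Deviations of log2(CPM + 1) from the mean of a sex were correlated with the mean of the 7 (for an effector, of the others) over 12 body libraries, as a description, since the libraries share depth, genotype and tissue makeup. The r was 0.92 for BomS1, 0.87 for BomS3, 0.77 for Dso1, 0.70 for BomS2, 0.66 for BaraA1, 0.63 for BomBc1 and 0.35 for Dso2. BomS1 and BomS3 had an r of 0.91 and 0.85 in females and of 0.95 and 0.94 in males, while Dso1 had 0.95 in females and 0.36 in males. In females the mean deviation was lowest in XXYcongo (-1.01 and -0.69) and highest in XX replicate 2 (0.94), and XXYohio was split (0.83 and -0.54). In males it was lowest in XYYcongo (-0.58 and -0.83), against 0.45 and 0.54 in XYYohio and 0.33 and 0.10 in XY.

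Among 10146 genes compared, the 8 others most like the mean of the effectors were BomT1 (r = 0.94), Nepl12 (0.90), nec (0.88), Tsf1 (0.88), Xport-B (0.86), Xport-A (0.86), CG12780 (0.85) and Nha2 (0.85). BomT1 is a further Bomanin gene and belongs to the list of other Toll effectors. The gene nec, of the protease list, encodes the serpin Necrotic, an inhibitor in the Toll protease cascade. Tsf1, a gene of the fat body list, encodes the iron-binding protein transferrin of the hemolymph. Tsf1 stood at 72.2 and 72.9 CPM in XXYcongo, against 195 and 138 CPM in XX, and at 1021 and 947 CPM in XYYcongo, against 2013 and 1598 CPM in XY. nec stood at 10.5 and 13.6 CPM in XXYcongo, against 25.6 and 34.9 CPM in XX, and at 85.6 and 54.0 CPM in XYYcongo, against 119 and 107 CPM in XY. As these genes were chosen for following the effectors over the same libraries, their values are a description. Xport-A and Xport-B had nearly the same CPM in all 12 libraries and count as 1 pattern.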

How the data were processed

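Raw read counts per FlyBase gene were taken from the deposited files, 1 per library, and were not normalized by the authors. The tools that the submitters' processing notes name are Trim Galore, Bowtie2, SAMtools, DESeq2 1.8.1 and R 3.2.3, and neither a build nor a strand setting is given. The authors' deposited comparison tables hold log2 fold changes and p-values with adjusted p-values, and were used only where named. Files that write "cs" were read as Yohio, as the labels give it.

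The counts were modelled in edgeR 4.0.16 under R 4.3.3, with filterByExpr at a minimum count of 10, TMM scaling, quasi-likelihood tests and Benjamini-Hochberg adjustment over all genes tested. Each tissue and sex had its own fit of 6 libraries with 3 residual degrees of freedom, and the 12 bodies were fitted together, with 6, for the sexes and for differences of differences. The common coefficient of biological variation came to 0.41 in female and 0.37 in male bodies. An exact two-sided permutation p for 1 gene in 2 against 2 libraries is 0.333 at best and is not reported. The procedure was tested on simulated data.

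Alternatives were RLE scaling, no filter, DESeq2 1.42.0, fits of only the 4 libraries compared, a block for the replicate number, each library left out, and mitochondrially encoded genes left out. All measured effector genes were named; of each list the genes called, or else up to 4 with the highest mean CPM in bodies, were open to naming, and CG30059 and Stacl were named for their overlap. Genes like the effectors were the 8 with the highest r. The members and lists were chosen with earlier results of these data known.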

Additional observations from a re-analysis of the deposited data

How the results depend on the processing

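Of the 59 fold changes of effector genes recomputed (each pair of body groups within a sex, control sexes, and those printed singly for ovaries, testes, pooled Y chromosomes and differences of differences), RLE scaling and leaving out mitochondrially encoded genes changed no sign and no call. The effector genes called by edgeR with an added Y were 0 in each comparison, and with 1 library left out the count ranged from 0 to 0. Without the filter there were 3 for XXYcongo against XX, 1 for XXYcongo against XXYohio (BomBc1) and 1 for either Y against XX (BaraA1), and with DESeq2 there was 1, BomS1, for XYYcongo against XYYohio. Between control sexes the 5 calls became 7 without the filter and with DESeq2. In the main fit 35.1% of all 13318 genes were called in this comparison, and 22.7% were called lower. Shares of all genes under these alternatives are not given here. The log2 fold change of BomBc1 was -2.62 without XXYohio replicate 1 and -2.67 without XXYohio replicate 2. That of Dso2 was -5.37 without XX replicate 2.

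Signs turned as follows when 1 library was left out. In XXYohio against XX, BomS1 ranged from -1.06 and BomBc1 from -3.15 (both without XXYohio replicate 1) to 0.84 and 2.39, and Dso2 from -1.48 to 2.60 (without XX replicate 2), with 0.08 under the replicate block. In XXYcongo against XX, Dso2 ranged from -2.57 to 1.51 (without XX replicate 2), and against XXYohio, BomBc1 ranged from -4.92 to 0.65 and BaraA1 from -1.20 to 0.13 (both without XXYohio replicate 1). In XYYcongo against XY, Dso1 ranged from -0.79 to 0.30 (without XY replicate 2), with 0.12 without XYYcongo replicate 2. In XYYohio against XY, BomS2 ranged from -0.03 to 0.57, BomS3 from -0.21 to 0.19, BomBc1 from -0.55 to 0.52, Dso1 from -0.14 to 0.83, Dso2 from -0.40 to 1.51, BaraA1 from -0.29 to 0.99 and Mtk from -1.05 to 0.48; signs turned without XY replicate 1 (BomS3, BomBc1, Dso1, Mtk), XY replicate 2 (BomS2, BaraA1) or XYYohio replicate 2 (BomS3 0.11, BomBc1 0.36, Dso1 -0.05, Dso2, Mtk 0.11). In ovaries BaraA1 in XXYcongo against XX ranged from -0.39 to 0.37 (without XX replicate 2). The cause was not tested.

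Counts over all genes were less stable. In female bodies the 0 calls became 58 (XXYohio), 48 (XXYcongo), 17 (XXYcongo against XXYohio) and 104 (either Y) without the filter, where more genes were tested, and 14, 6 and 15 (XXYohio, XXYcongo, either Y) with DESeq2. In male bodies DESeq2 gave 12 (XYYcongo), 16 (XYYcongo against XYYohio) and 1 (either Y), and leaving out 1 library gave 0 to 1. In ovaries, XXYohio against XX had 1 call, and 96 without the filter, 23 with DESeq2, 2 with the block, 45 with 4 libraries, and 0 to 46 with 1 library left out. XXYcongo against XX had 25, and 266, 185, 80 and 6 under the same alternatives, 3 without mitochondrially encoded genes, and 2 to 496 with 1 library left out. XXYcongo against XXYohio had 1, and 163, 43 and 17 under the first 3, 0 without mitochondrially encoded genes, and 0 to 198 with 1 library left out. In testes the 0 calls became 1, 2 and 1 (XYYohio, XYYcongo, XYYcongo against XYYohio) without the filter, 4, 6 and 8 with DESeq2, and 0 to 4 with 1 library left out for both Ycongo comparisons.

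Same-numbered body libraries did not deviate together throughout (correlations of 0.53, 0.47 and -0.11 in females and 0.60, -0.29 and -0.38 in males), so the replicate number was not taken as a pairing; with it as a block, 0 effector genes were called with an added Y. Mtk had 0 counts in 2 of 6 female body libraries, and 6 of the 8 genes had 0 counts in all 6 CNS libraries. Whether more depth would have shown these transcripts was not tested.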
